A study of Mus musculus with 9 samples.

Results

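The genes described here control cGAMP, clear DNA that would raise it, or handle STING, and they were followed across the dendritic cell (DC) subsets of the unstimulated mouse spleen. The members were the 10 genes of the count table whose names are Enpp1, Trex1, Samhd1, Rnaseh2b, Dnase2a, Stim1, Surf4, Trim56, Rnf5 and Nlrc3, of 39179 genes listed. RNA was sequenced from splenic DC of C57BL/6J mice aged 6 to 12 weeks, at steady state, in 3 subsets with 3 libraries each: CD8+ conventional DC (cDC1), CD8- conventional DC (cDC2) and plasmacytoid DC (pDC). All groups were wild type and untreated, so the only factor that differed between them was the sorted subset. Each library came from the pooled spleens of 15 to 17 mice, so a value is an average over animals, and the subsets were separated by CD11c, CD317, CD8 and CD11b. Libraries with the same replicate number carried the same date code in all 3 subsets. The comparison asked whether their transcripts followed the order of Tmem173, which encodes STING, with pDC above cDC2 and cDC2 above cDC1.

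STING is a membrane protein of the endoplasmic reticulum (ER) that binds cGAMP, the cyclic dinucleotide made by cGAS (here listed as Mb21d1) when cGAS meets DNA in the cytosol. Once bound, STING moves to the Golgi, where it recruits the kinase TBK1, and the IRF and NF-κB pathways induce interferons and cytokines. The pathway is held back at several steps. Nucleases remove the DNA, a hydrolase breaks down cGAMP outside the cell, carrier proteins keep STING in the ER or return it there, and ubiquitin ligases either activate STING or send it for degradation.

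Total counts on genes ranged from 15806597 to 32453789 per library, and replicate 3 was the shallowest in every subset. Levels are CPM (reads of a gene relative to the library's total, on a fixed scale) corrected by edgeR's TMM factors, and 3 reads, taken as the limit of detection, corresponded to between 0.0908 and 0.203 CPM. Markers followed the labels for cDC1 (7 of 7 highest in cDC1, with no overlap between subsets) and pDC (8 of 8), and less so for cDC2, where 5 of 8 were highest in cDC2 and 3 (Cd4, Mgl2 and Cd209a) were highest in pDC. The markers include Cd8a, Bst2 and Itgam, the genes of CD8, CD317 and CD11b. The cells were sorted on these antigens, so these genes are no independent check of the labels. The summed level of 10 macrophage and monocyte markers was 2763 to 3929 CPM in pDC, 1232 to 1587 in cDC2 and 468 to 644 in cDC1. Ly6c2, at 2226 CPM on average, made up most of the pDC sum, whereas Emr1 stood at 14.0 CPM in pDC and at 344 CPM in cDC2. The part of such cells in the results was not tested.

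Promoter sequence was given in RefSeq (GRCm38.p6) for 8 of the 10 members, as windows of 250 bases before and 50 bases after the annotated start, and Rnaseh2b and Rnf5 had no entry. The 250 bases before the start are shown for Enpp1 (chr10:24712160-24712409, minus strand), Stim1 (chr7:102267569-102267818, plus strand) and Trim56 (chr5:137116208-137116457, minus strand), because Enpp1 was higher in pDC than in both other subsets and the order of Tmem173 was seen in Stim1 and, within each replicate number, in Trim56. Capitals mark the Sp1 core GGGCGG on either strand in Enpp1 and Stim1, and the ETS purine core AGGAAG on either strand in Trim56.
Enpp1: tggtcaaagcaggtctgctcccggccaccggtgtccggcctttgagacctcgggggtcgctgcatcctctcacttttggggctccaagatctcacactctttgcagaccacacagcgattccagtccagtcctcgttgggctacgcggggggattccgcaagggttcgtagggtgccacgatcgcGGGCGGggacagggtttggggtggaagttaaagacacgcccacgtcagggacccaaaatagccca
Stim1: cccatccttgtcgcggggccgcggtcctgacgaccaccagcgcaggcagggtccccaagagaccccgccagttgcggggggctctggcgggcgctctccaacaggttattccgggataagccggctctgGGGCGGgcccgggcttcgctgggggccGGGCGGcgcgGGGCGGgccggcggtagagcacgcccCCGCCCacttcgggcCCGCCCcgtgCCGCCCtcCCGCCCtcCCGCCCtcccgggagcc
Trim56: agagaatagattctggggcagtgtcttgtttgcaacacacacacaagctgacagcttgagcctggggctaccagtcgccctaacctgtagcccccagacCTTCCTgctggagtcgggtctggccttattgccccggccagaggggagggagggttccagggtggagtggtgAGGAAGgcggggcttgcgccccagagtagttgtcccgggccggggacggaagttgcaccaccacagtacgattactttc
The Stim1 window held 8 Sp1 cores, the Enpp1 window held 1 and the Trim56 window held none, and 35.7% of all 32851 promoter windows held at least 1. The Surf4 window, not shown although Surf4 was also higher in pDC than in both other subsets, held 7. Sp1 cores also occurred in the windows of Samhd1 and Dnase2a and in 1 of the 2 Trex1 windows. The ETS purine core occurred 2 times in the Trim56 window and 3 times in that of Nlrc3, and 35.4% of all windows held at least 1. It also occurred in the windows of Enpp1, Dnase2a and Surf4 and in both Trex1 windows. Neither core was thus confined to members that were higher in pDC. Trim56 was the only member with a promoter entry whose window held an interferon regulatory factor core (AANNGAAA on either strand), which was found in 23.9% of all windows. Its 2 matches lay at the start itself, in the 30 bases at chr5:137116193-137116222 (minus strand), where they are shown in capitals.
Trim56 start: agtacgattacTTTCAGTTttgTTTCTCTT
These matches are a description of the letters and not of binding by any factor.

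Enpp1 encodes the membrane ectoenzyme that hydrolyses cGAMP outside the cell, and its transcript was highest in pDC. It was listed as ENSMUSG00000037370 on chromosome 10, 24637914 to 24712159 on the minus strand of GRCm38, with 25 exons in its principal transcript and the coding region running from exon 1 to exon 25. Its level was 14.2, 16.3 and 11.3 CPM in pDC replicates 1, 2 and 3. It was 4.04, 3.92 and 4.40 CPM in cDC1 and 3.00, 2.73 and 5.37 CPM in cDC2. All 3 pDC libraries lay above all 6 conventional DC libraries, and the conventional subsets overlapped. Enpp1 in pDC was 3.38-fold higher than in cDC1 (log2 fold change 1.76, standard error 0.288, adjusted p = 0.000670) and 3.79-fold higher than in cDC2 (log2 fold change 1.92, standard error 0.289, adjusted p = 0.000415). These and all following adjusted p-values come from the quasi-likelihood test of edgeR, with Benjamini and Hochberg's adjustment across the 13819 genes tested. Enpp1 in cDC2 did not pass the test against cDC1 (log2 fold change -0.17, adjusted p = 0.748). Enpp1 is also known from plasma cells, and the summed level of 5 plasma cell markers was 599 to 877 CPM in pDC against 100.5 to 142 CPM in the other subsets. Igj, Sdc1 and Xbp1 made up nearly all of that difference, and Tnfrsf17 was also highest in pDC, at 0.560 CPM against 0.0796 in cDC2 and 0.0139 in cDC1, whereas Prdm1 was highest in cDC2 (6.49 CPM against 0.513 in pDC). The part of plasma cells in the Enpp1 level was not tested.

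Samhd1 encodes the enzyme that breaks down deoxynucleoside triphosphates and limits DNA synthesis outside the nucleus, and its transcript was lowest in pDC and highest in cDC2. Its identifier is ENSMUSG00000027639 and it lies on chromosome 2, 157097533 to 157135265 on the minus strand. Its level was 441, 442 and 572 CPM in pDC replicates 1, 2 and 3, 749, 729 and 771 CPM in cDC1, and 1087, 1047 and 1228 CPM in cDC2. No 2 subsets overlapped. Samhd1 in pDC was 1.55-fold lower than in cDC1 (log2 fold change -0.63, standard error 0.118, adjusted p = 0.00159) and 2.31-fold lower than in cDC2 (log2 fold change -1.21, standard error 0.119, adjusted p = 2.44e-05). Samhd1 was 1.49-fold higher in cDC2 than in cDC1 (log2 fold change 0.58, standard error 0.118, adjusted p = 0.00545).

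Rnaseh2b encodes the non-catalytic B subunit of RNase H2, the nuclease that cuts RNA paired with or embedded in DNA, and its transcript was lower in pDC than in both conventional subsets. The gene (ENSMUSG00000021932) lies on chromosome 14, 62292589 to 62372992 on the plus strand. Its level was 15.3, 15.1 and 21.9 CPM in pDC replicates 1, 2 and 3. In cDC1 it was 34.5, 37.1 and 42.3 CPM and in cDC2 it was 34.7, 33.1 and 38.5 CPM. The pDC libraries lay below all others, and the conventional subsets overlapped. Rnaseh2b in pDC was 2.18-fold lower than in cDC1 (log2 fold change -1.13, standard error 0.168, adjusted p = 0.000361) and 2.04-fold lower than in cDC2 (log2 fold change -1.03, standard error 0.167, adjusted p = 0.000707). Between cDC2 and cDC1 the log2 fold change was -0.10 (adjusted p = 0.732). The other subunits of the same enzyme were measured too. The catalytic subunit Rnaseh2a had 33.8 ± 6.84 CPM (cDC1), 24.7 ± 1.05 (cDC2) and 31.8 ± 2.05 (pDC) (mean ± SD of 3 libraries, as in all values below), and passed none of the tests between subsets (adjusted p between 0.0567 and 0.663). For the C subunit Rnaseh2c, cDC2 had 23.4 ± 5.58 CPM, cDC1 18.7 ± 1.63 and pDC 14.7 ± 2.10. It was lower in pDC than in cDC2 (log2 fold change -0.67, adjusted p = 0.0195) and did not pass the test against cDC1 (log2 fold change -0.35, adjusted p = 0.182), although the pDC libraries lay below those of cDC1 without overlap. Whether the subunits differed from each other in their fold changes was not tested.

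Dnase2a encodes the acid DNase that digests engulfed DNA in lysosomes, and its transcript differed little among the subsets. The gene, ENSMUSG00000003812, lies on chromosome 8, 84908560 to 84922915 on the plus strand. Its level was 54.0, 53.2 and 58.0 CPM in pDC replicates 1, 2 and 3, 48.3, 43.9 and 47.0 CPM in cDC1, and 63.4, 53.4 and 56.4 CPM in cDC2. The cDC1 libraries lay below the others without overlap, and pDC and cDC2 overlapped. No contrast passed the threshold: pDC had a log2 fold change of 0.25 against cDC1 (95% interval 0.0096 to 0.48, adjusted p = 0.0806), 0.32 for cDC2 against cDC1 (0.079 to 0.55, adjusted p = 0.0563) and -0.07 for pDC against cDC2 (-0.31 to 0.17, adjusted p = 0.632). When the replicate number entered the fit as a block (the replicate block), Dnase2a passed it against cDC1 in both pDC (adjusted p = 0.0284) and cDC2 (adjusted p = 0.0158). In all, cDC2 against cDC1 passed in 6 of 19 alternatives (the block, DESeq2, limma-voom, library size alone as scaling, at least 10 counts in every library, and without pDC replicate 3; adjusted p between 0.0110 and 0.216 over all 19), and pDC against cDC1 in 2 of 19 (the block and library size alone; 0.0181 to 0.225). Exons of Mast1 on the opposite strand cover 29.99% of the Dnase2a exon bases, and Mast1 had 69 reads in all against 11463 for Dnase2a. The same holds for 24.68% of the Rnf5 exon bases, which lie under the antisense gene Gm20463 with 3 reads in all. Whether the counting used the strand is not given in the sources used here.

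Trex1 encodes the main DNA exonuclease of the cytosol, and it was listed with 0 reads in each of the 9 libraries. The gene (ENSMUSG00000049734) lies on chromosome 9, 109057933 to 109059734 on the minus strand, with 2 exons in its principal transcript and the whole coding region of 942 bases in exon 2. A count of 0 allows up to 3 reads, or 0.0908 to 0.203 CPM, as far as counting error goes. The gene lies inside its neighbour on the same strand, Atrip, which encodes a partner of the DNA damage kinase ATR and ends at the same base. Annotated Atrip exons cover 100% of the 1147 exon bases of Trex1. Of 868 windows of 75 bases (the read length) in the Trex1 coding region, all 868 also occur in an Atrip transcript. The first 150 bases of that region, with the start codon in capitals, are shown because every read from them has the same letters for both genes (chr9:109058772-109058921, minus strand, GRCm38).
Trex1 coding start: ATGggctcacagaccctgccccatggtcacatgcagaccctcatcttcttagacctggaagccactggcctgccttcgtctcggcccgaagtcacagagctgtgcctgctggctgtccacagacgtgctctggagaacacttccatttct
Atrip itself, named here after its values were seen, had 181 to 468 reads per library. It reached 14.3 ± 0.836 CPM (cDC1), 11.8 ± 2.07 (cDC2) and 16.2 ± 2.33 (pDC), and no contrast passed the threshold (adjusted p between 0.0690 and 0.463). The settings of the read counting are not given in the sources used here. Whether reads of Trex1 were counted for Atrip, dropped as ambiguous or missing from the RNA was not tested, so the 0 is no measurement of the Trex1 transcript, and Trex1 enters no comparison.

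**Figure D1:**
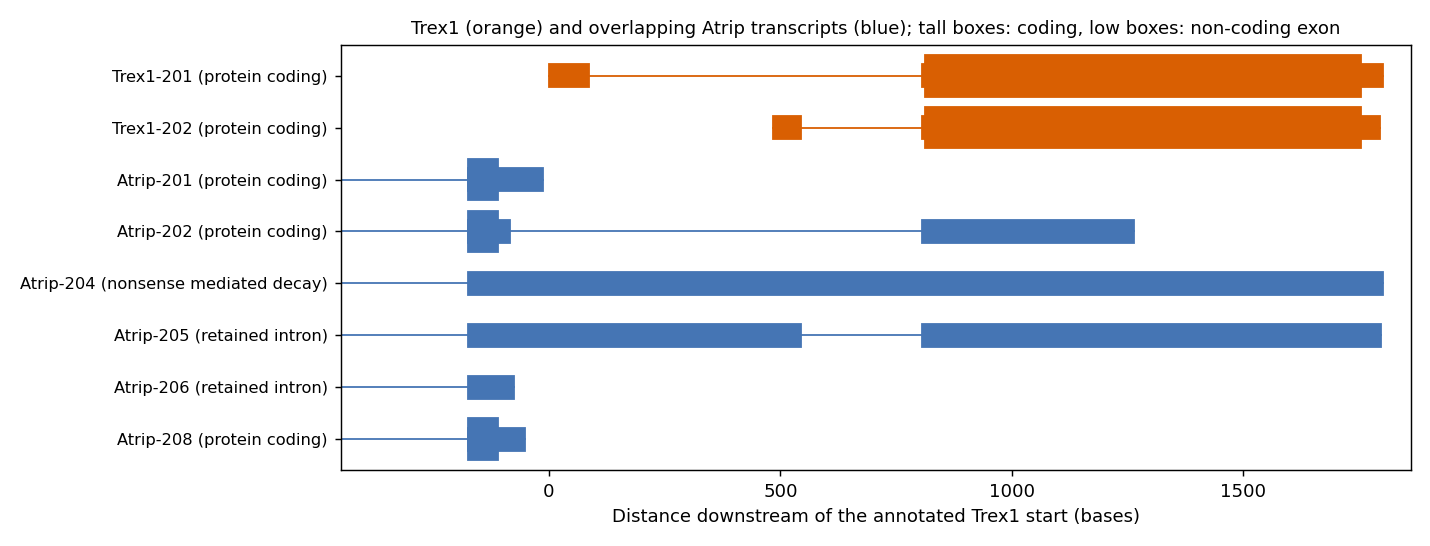
Annotated transcripts of Trex1 (orange) and the Atrip transcripts that reach it (blue), drawn to scale by distance from the Trex1 start in bases, with coding exons as tall boxes and non-coding exons as low boxes. Atrip-204 and Atrip-205, annotated as nonsense-mediated decay and retained-intron transcripts, cover the whole coding region of Trex1, in which all 868 windows of 75 bases are shared.

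Stim1 encodes the calcium sensor of the ER that holds STING there in resting cells. In the fit without the replicate block, it was the only member whose transcript passed the tests in the order of Tmem173. With the block, Trim56 passed them as well. The identifier of Stim1 is ENSMUSG00000030987. The gene lies on chromosome 7, 102267806 to 102437319 on the plus strand, and its promoter is shown above. Its level was 75.6, 69.0 and 72.8 CPM in pDC replicates 1, 2 and 3. In cDC2 it was 46.1, 41.8 and 53.0 CPM, and in cDC1 it was 35.4, 35.2 and 32.1 CPM. No 2 subsets overlapped, and the order pDC over cDC2 over cDC1 held in each of the 3 replicate numbers. How many of all genes had that order in every replicate number is not given here. Stim1 in pDC was 2.12-fold higher than in cDC1 (log2 fold change 1.08, standard error 0.117, adjusted p = 3.96e-05) and 1.54-fold higher than in cDC2 (log2 fold change 0.63, standard error 0.115, adjusted p = 0.00151). The step from cDC1 to cDC2 was the smallest, at 0.46 (standard error 0.116, adjusted p = 0.0171). That step no longer passed when cDC1 replicate 1 or 3 or cDC2 replicate 1 or 3 was left out (adjusted p up to 0.0727), with log2 fold changes between 0.33 and 0.52 over all single libraries left out. Stim2, the related calcium sensor, had another order, with 39.2 ± 8.57 CPM in cDC2, 29.7 ± 4.31 in pDC and 23.1 ± 5.34 in cDC1. Stim2 passed only the test of cDC2 against cDC1 (log2 fold change 0.76, adjusted p = 0.0291).

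Surf4 encodes a cargo receptor of the early secretory pathway that returns STING from the Golgi to the ER, and its transcript was highest in pDC. This gene (ENSMUSG00000014867) lies on chromosome 2, 26920040 to 26933928 on the minus strand. Its level was 606, 574 and 720.5 CPM in pDC replicates 1, 2 and 3, 378, 347 and 484 CPM in cDC1, and 339, 305 and 381 CPM in cDC2. All pDC libraries lay above all others, whereas cDC1 and cDC2 overlapped, with cDC1 the higher in each of the 3 replicate numbers. Surf4 in pDC was 1.57-fold higher than in cDC1 (log2 fold change 0.65, standard error 0.149, adjusted p = 0.00479) and 1.86-fold higher than in cDC2 (log2 fold change 0.89, standard error 0.149, adjusted p = 0.000826). Between cDC2 and cDC1 the log2 fold change was -0.24 (adjusted p = 0.302), and with the replicate block this became a difference past the threshold (adjusted p = 0.0159), in the direction opposite to that of Tmem173.

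**Figure D2:**
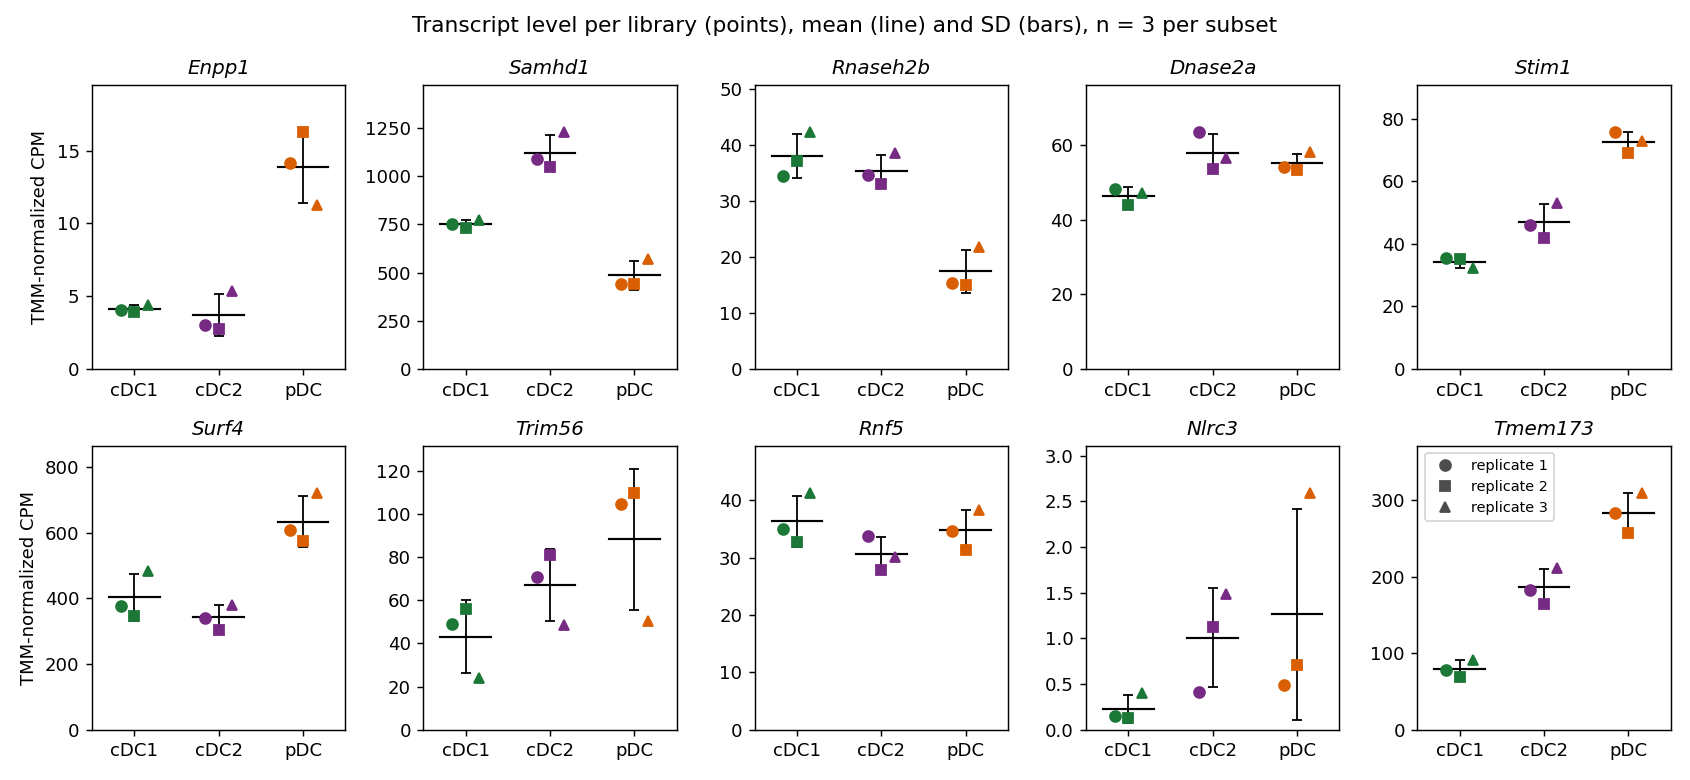
TMM-normalized CPM (y axis, from 0) of the 9 members with reads and of Tmem173 in cDC1, cDC2 and pDC, with 1 point per library shaped by replicate number, the mean as a line and the SD as bars (n = 3). Enpp1, Stim1 and Surf4 are highest in pDC and Samhd1 and Rnaseh2b lowest, while the 3 Trim56 points of replicate 3 (23.9, 48.6 and 50.4 CPM) lie below those of replicates 1 and 2 in each subset.

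Trim56 encodes a ubiquitin ligase, itself inducible by interferon, that adds ubiquitin to STING, and its transcript was higher in pDC than in cDC1. The identifier is ENSMUSG00000043279, and the gene lies on chromosome 5, 137105644 to 137116209 on the minus strand, with its whole coding region in exon 3. Its level was 104.5, 109.8 and 50.4 CPM in pDC replicates 1, 2 and 3, 70.9, 81.3 and 48.6 CPM in cDC2, and 49.2, 56.0 and 23.9 CPM in cDC1. Replicate 3 was the lowest library of its subset in all 3 subsets, so the subsets overlapped. Even so, pDC lay above cDC2 and cDC2 above cDC1 in each replicate number. The share of all genes with that order in every replicate number is not given here. Trim56 in pDC was 2.05-fold higher than in cDC1 (log2 fold change 1.03, standard error 0.365, adjusted p = 0.0400), whereas the differences between cDC2 and cDC1 (log2 fold change 0.63, adjusted p = 0.259) and between pDC and cDC2 (log2 fold change 0.40, adjusted p = 0.407) did not pass the threshold. With the replicate block, all 3 passed, at 1.04, 0.69 and 0.35 (adjusted p = 5.46e-05, 0.00148 and 0.0235). Without the 3 libraries of replicate 3, an alternative chosen after seeing the data, all 3 passed as well, at 0.99, 0.50 and 0.49 (adjusted p = 0.000163, 0.00763 and 0.00436). The difference between pDC and cDC1 lost the threshold in 7 of 19 alternatives, among them those without cDC1 replicate 1 or 3, cDC2 replicate 1 or 2, or pDC replicate 1 or 2, with log2 fold changes between 0.71 and 1.31 and adjusted p up to 0.132.

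**Figure D3:**
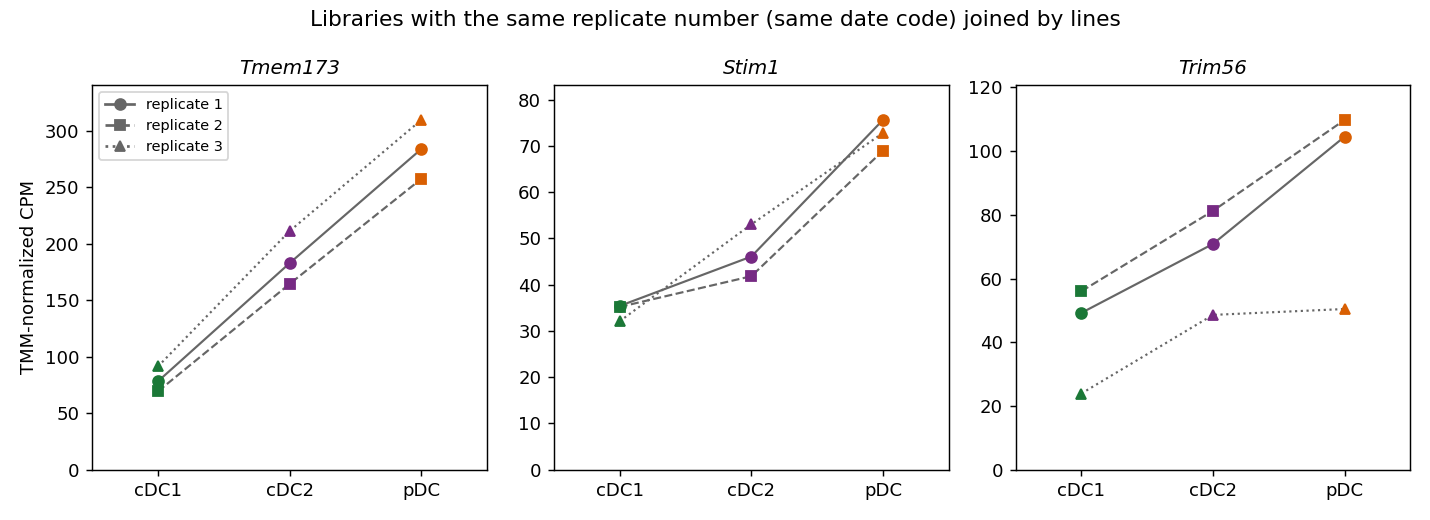
TMM-normalized CPM (y axis, from 0) of Tmem173, Stim1 and Trim56 in cDC1, cDC2 and pDC, with the libraries of one replicate number joined by a line. All lines rise from cDC1 to cDC2 to pDC, and the Trim56 line of replicate 3 runs from 23.9 to 50.4 CPM, below the other two.

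Rnf5 encodes a membrane-bound ubiquitin ligase that marks STING for degradation, and no difference among the subsets was detected. It has the identifier ENSMUSG00000015478 and lies on chromosome 17, 34601091 to 34603690 on the minus strand. Its level was 34.7, 31.2 and 38.3 CPM in pDC replicates 1, 2 and 3, 35.0, 32.7 and 41.2 CPM in cDC1, and 33.7, 27.9 and 30.1 CPM in cDC2. All subsets overlapped. Rnf5 in pDC had a log2 fold change of -0.06 against cDC1 (95% interval -0.37 to 0.24) and 0.18 against cDC2 (-0.12 to 0.49), and cDC2 had one of -0.25 against cDC1 (-0.55 to 0.060), with adjusted p between 0.241 and 0.736. The intervals leave room for changes of up to 0.55 on the log2 scale.

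Nlrc3 encodes an NLR family protein that binds STING and restrains its traffic, and it was barely counted, with 160 reads over all 9 libraries. The gene (ENSMUSG00000049871) lies on chromosome 16, 3945007 to 3976632 on the minus strand. It had 16, 14 and 44 reads in pDC replicates 1, 2 and 3, 13, 32 and 28 reads in cDC2, and 4, 3 and 6 reads in cDC1, which corresponds to 0.484, 0.710 and 2.59 CPM, 0.414, 1.12 and 1.49 CPM, and 0.146, 0.125 and 0.406 CPM. The cDC1 libraries were the lowest, at or just above the limit of 3 reads, and pDC and cDC2 overlapped. The cDC1 libraries alone would not have passed the filter on low counts, and Nlrc3 passed it through the subsets where it is higher, so its fold changes against cDC1 rest on few reads and their size is uncertain. Nlrc3 in pDC had a log2 fold change of 2.52 against cDC1 (standard error 0.888, adjusted p = 0.0396), which lost the threshold in 6 of 18 alternatives, among them limma-voom and those without cDC1 replicate 1 or 2, cDC2 replicate 2 or pDC replicate 3 (log2 fold change 1.47 to 3.11 and adjusted p up to 0.148 over all alternatives). The other contrasts did not pass, at 2.20 from cDC1 to cDC2 (adjusted p = 0.105, but 0.0348 with the replicate block, 0.0448 without pDC replicate 3 and 0.0292 without replicate 3 in any subset) and 0.31 from cDC2 to pDC (adjusted p = 0.777). Lymphocytes are known to express Nlrc3. The summed level of 5 NK cell markers was 9.53 to 41.8 CPM in pDC, 19.8 to 78.1 in cDC2 and 8.22 to 27.0 in cDC1, and replicate 3 was the highest of each subset. That of 6 T cell markers was 15.8 to 21.4 CPM in pDC, 32.5 to 51.1 in cDC2 and 15.1 to 19.2 in cDC1. All 6 T cell markers had their highest mean in cDC2, with 1.84 CPM for Cd3g, 8.95 for Lck and 30.05 for Cd5. Trac (0.392 CPM against 0.390 in pDC) and Cd3e (0.403 against 0.375) barely differed from pDC. Trac, Cd3e and Cd3d did not pass the F test over the 3 subsets (adjusted p between 0.110 and 0.848). Only Cd5 lay above both other subsets without overlap. The mean of Nlrc3 was 1.26 CPM in pDC and 1.01 in cDC2, a difference that did not pass the threshold. The pDC mean rests on replicate 3, at 2.59 CPM against 0.484 and 0.710 in replicates 1 and 2. The part of NK and T cells in the Nlrc3 counts was not tested.

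Of the 10 members, 9 had enough reads for the test, and 5 of them (Enpp1, Samhd1, Rnaseh2b, Stim1 and Surf4) differed among the subsets by the F test, which is 55.6% against 56% of the 13819 genes tested. Differences among these subsets were therefore as frequent in the table as a whole. In pDC against cDC1, 7 of 9 passed the threshold against 48.6% of all genes: Enpp1, Stim1, Surf4, Trim56 and Nlrc3 were higher (5 members, against 24.3% of all genes) and Samhd1 and Rnaseh2b lower (2 members, against 24.4%). Nlrc3, with 3 to 6 reads in the cDC1 libraries, is counted among the 5 and the 7. It passed the filter on low counts through the subsets where it is higher, so its call is no independent support. In pDC against cDC2, 5 of 9 passed against 45.8% of all genes, with Enpp1, Stim1 and Surf4 higher (against 22.5% of all genes) and Samhd1 and Rnaseh2b lower (against 23.3%). In cDC2 against cDC1, 2 of 9 passed against 24.4% of all genes, and both, Samhd1 and Stim1, were higher in cDC2. The libraries of the compared subsets did not overlap in 7 of 9 members for pDC and cDC1, 5 for pDC and cDC2 and 4 for cDC2 and cDC1, against 58.6%, 56.1% and 44.5% of all genes. Nlrc3 is among the 7 and the 4, with the same limit. The median log2 fold change of the 9 members was 0.65, 0.31 and 0.32 in these 3 contrasts, against 0.02, -0.01 and 0.03 over all genes. With 9 members each median is the value of 1 gene, Surf4, Nlrc3 and Dnase2a in turn. The values of Nlrc3 and Dnase2a did not pass the threshold, and that of Nlrc3 rests on few reads. With the replicate block, 8 members differed by the F test, against 66.7% of all genes, and 6 differed between cDC2 and cDC1, against 35.6%.

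**Figure D4:**
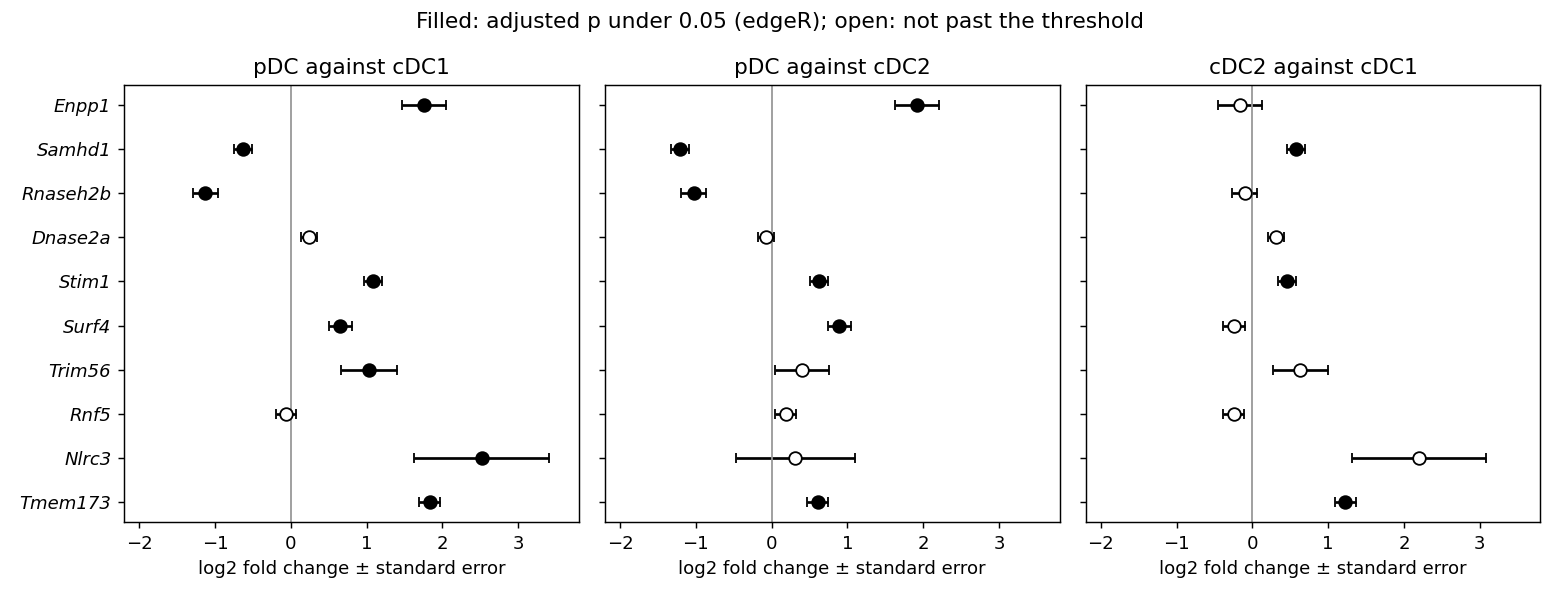
Log2 fold change with its standard error (x axis) of 9 members and Tmem173, with 1 panel for each pair of subsets and filled points for an adjusted p under 0.05. Stim1 and Tmem173 have filled points to the right of 0 in all 3 panels, and Rnaseh2b and Samhd1 lie to the left of 0 in both pDC panels.

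Set against Tmem173, 1 of 9 members (Stim1) had all 3 contrasts past the threshold in the order pDC over cDC2 over cDC1, against 2.83% of all genes, and none had the reverse order, which 3.05% of all genes had. With the replicate block, or without replicate 3, Trim56 joined Stim1, and 4.65% of all genes were then in the order with the block. The levels of Tmem173 were 79.7 ± 11.1 CPM (cDC1), 186 ± 23.6 (cDC2) and 284 ± 26.1 (pDC), with log2 steps of 1.23 from cDC1 to cDC2 and 0.61 from cDC2 to pDC. Stim1 matched the step from cDC2 to pDC in size (0.63) and had a smaller one from cDC1 to cDC2 (0.46). Mb21d1, which encodes the cGAMP synthase, was lowest in pDC, with 3.74 ± 0.410 CPM, 24.0 ± 1.97 in cDC2 and 24.9 ± 2.33 in cDC1. Its log2 fold change in pDC against cDC1 was -2.74 (adjusted p = 7.24e-07). Between cDC2 and cDC1 it did not pass the test (log2 fold change -0.05, adjusted p = 0.858), so it did not have the reverse order. In bulk samples of this kind, fewer cells of a type and less RNA per cell cannot be told apart.

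Expressed per 100 reads of Tmem173 in the same library, a measure that needs no scaling between libraries, Stim1 had 43.7 ± 7.93 reads in cDC1, 25.2 ± 0.169 in cDC2 and 25.6 ± 1.85 in pDC. Surf4 had 504 ± 23.6 reads in cDC1, 184 ± 3.06 in cDC2 and 223 ± 9.52 in pDC. Rnaseh2b went from 47.9 ± 4.94 in cDC1 to 19.1 ± 0.959 in cDC2 and 6.10 ± 0.860 in pDC, and Samhd1 from 951 ± 104 to 604 ± 29.1 and 171 ± 14.7. Rnf5, whose own level differed little, went from 45.7 ± 1.29 to 16.5 ± 2.13 and 12.2 ± 0.120. Enpp1 had 5.21 ± 0.421 reads in cDC1, 1.95 ± 0.515 in cDC2 and 4.98 ± 1.34 in pDC. Because Tmem173 was lowest in cDC1, a gene of even level has its highest ratio there, as Rnf5 shows. The mean ratio was highest in cDC1 for every member with reads but Nlrc3. The share of all genes with this pattern was not computed, so it is no result about the members. The pDC range of Enpp1 overlapped its cDC1 range. These ratios share Tmem173 as denominator and are a description with no test.

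**Figure D5:**
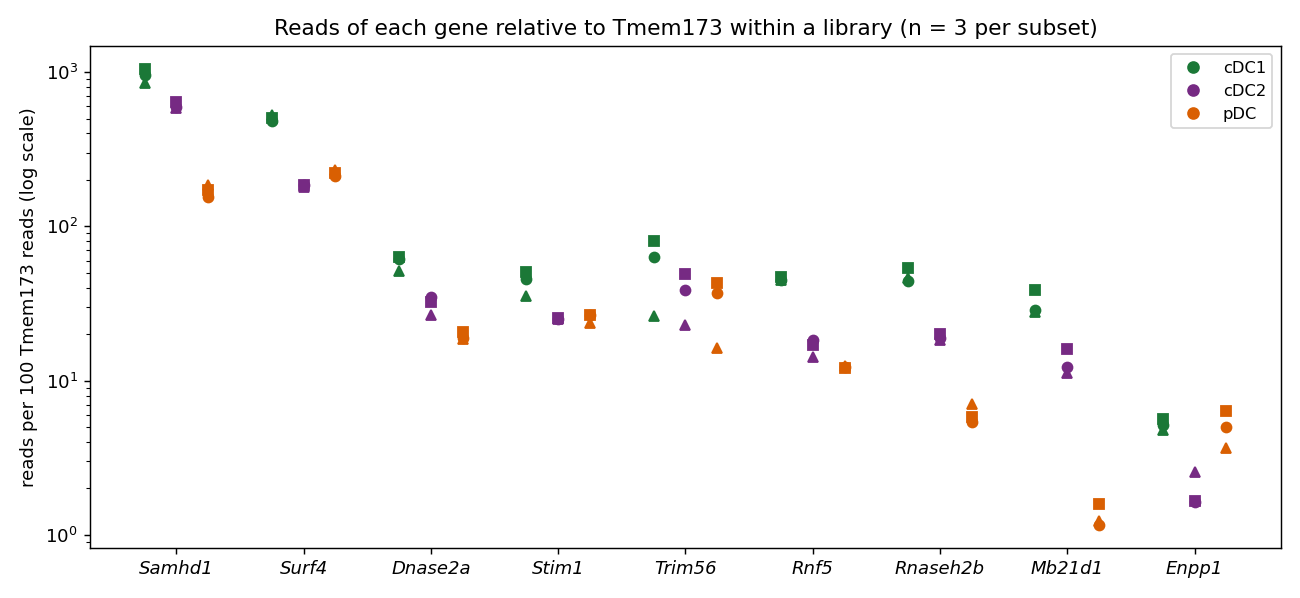
Reads of 8 members and Mb21d1 per 100 reads of Tmem173 within each library (y axis, log scale), with 1 point per library coloured by subset (cDC1 green, cDC2 purple, pDC orange) and shaped by replicate number. The cDC1 points lie above the cDC2 points except where Trim56 overlaps, and Enpp1 in pDC (3.63 to 6.32) overlaps its cDC1 range (4.81 to 5.65).

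Between genes, levels are comparable only per length of exon, and on that scale (CPM per kilobase of annotated exon) the members covered more than 3 orders of magnitude. Surf4 was the highest in pDC, at 193 ± 23.4 CPM per kilobase, above Tmem173 at 104 ± 9.52 and Samhd1 at 53.0 ± 8.21. In cDC2 the order was Samhd1 at 122 ± 10.4, Surf4 at 104 ± 11.6 and Tmem173 at 67.9 ± 8.60. Surf4 and Samhd1 did not separate there beyond their spread (92.9 to 116 against 114 to 134 in single libraries). In cDC1 Surf4 stood at 123 ± 21.9, Samhd1 at 82.0 ± 2.30 and Tmem173 at 29.1 ± 4.05. Rnf5 followed at 20.6 to 24.5 on average in each subset. Dnase2a, Trim56, Rnaseh2b and Stim1 stood between 2.79 and 10.7 on average, Enpp1 between 0.361 and 1.35, and Nlrc3 between 0.0319 and 0.179. The neighbours Dnase2a (10.2 ± 0.477) and Trim56 (9.51 ± 3.54) in pDC, and Rnaseh2b (5.67 ± 0.445) and Stim1 (4.53 ± 0.546) in cDC2, lay close together, the first pair within the spread.

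The genes whose log2 levels were most like those of the 5 members that differed by the F test were sought over the 9 libraries among 9459 genes with a mean of at least 5 CPM. Ppp1r3e was nearest to Enpp1 (Pearson r = 0.990), Csgalnact2 to Samhd1 (r = 0.994), Cenph to Rnaseh2b (r = 0.996), Abhd14b to Stim1 (r = 0.991) and Abhd4 to Surf4 (r = 0.995). Each r is the highest of 9459 values and so is high by selection. For Rnf5, which did not differ by the F test, the highest r was 0.954. Cenph, which encodes a kinetochore protein, stood at 2.03 ± 1.66 CPM in pDC, 9.85 ± 1.60 in cDC2 and 11.5 ± 2.12 in cDC1. A link between Cenph and Rnaseh2b was not tested. Tmem173 itself correlated with Stim1 at r = 0.937, with Dnase2a at 0.780, with Nlrc3 at 0.710, with Enpp1 at 0.673 and with Surf4 at 0.584. Its correlation was 0.550 with Trim56, -0.158 with Rnf5, -0.31 with Samhd1 and -0.713 with Rnaseh2b. These values are a description over 9 libraries that fall into 3 subsets and share 3 date codes.

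Other genes of the same steps were taken from lists of 82 genes, of which 71 could be tested, and 48 of these (67.6%) differed among the subsets by the F test against 56% of all genes. Among 13 further genes of cGAMP turnover and transport, 9 were tested and 8 differed (against 56% of all genes), 3 higher and 4 lower in pDC than in cDC1 (against 24.3% and 24.4% of all genes). Smpdl3a, a phosphodiesterase that also degrades cGAMP, was lower in pDC, at 33.9 ± 12.8 CPM against 98.3 ± 5.56 in cDC1 (log2 fold change -1.54, adjusted p = 0.000466) and 114 ± 14.5 in cDC2 (log2 fold change -1.76, adjusted p = 0.000216), the opposite direction to Enpp1. Slc19a1, the folate carrier that also imports cGAMP, had 5.41 ± 1.14 CPM (cDC2), 8.38 ± 3.64 (cDC1) and 11.1 ± 1.92 (pDC) and was higher in pDC than in cDC2 (log2 fold change 1.04, adjusted p = 0.0216). Enpp3, the ectoenzyme related to Enpp1, had at most 1 read in any library.

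Among 17 further genes of DNA and RNA-DNA disposal, 14 were tested and 10 differed (against 56% of all genes), 5 higher and 4 lower in pDC than in cDC1 (against 24.3% and 24.4%). Dnase1l3, a secreted DNase that digests DNA in chromatin and microparticles, had the reverse of the Tmem173 order, with 2355 ± 126 CPM (cDC1), 995 ± 103 (cDC2) and 71.0 ± 21.3 (pDC). It was 33.2-fold lower in pDC than in cDC1 (log2 fold change -5.05, adjusted p = 1.37e-07) and 2.37-fold lower in cDC2 (log2 fold change -1.24, adjusted p = 0.00112). Adar, which edits adenosines in double-stranded RNA, was higher in pDC (166 ± 34.9 CPM) than in cDC1 (108 ± 21.1), with a log2 fold change of 0.62 (adjusted p = 0.0203). Trex2, the close relative of Trex1, was listed with 0 reads in all libraries, and Dnase2b, the relative of Dnase2a, had at most 3 reads in any library.

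Among 27 genes of STING traffic, all were tested and 16 differed (against 56% of all genes), 9 higher and 3 lower in pDC than in cDC1 (against 24.3% and 24.4%). Rhbdf2, the inactive rhomboid protein that helps STING leave the ER, was 15.6-fold higher in pDC (150.1 ± 30.4 CPM) than in cDC1 (9.61 ± 0.464, adjusted p = 4.22e-07), and stood at 12.8 ± 2.84 in cDC2. Tmed2, a cargo receptor of vesicles between ER and Golgi, was higher in pDC (152 ± 38.6 CPM) than in cDC1 (88.0 ± 13.5, log2 fold change 0.79, adjusted p = 0.00450) and cDC2 (64.5 ± 1.99, log2 fold change 1.24, adjusted p = 0.000324). Sec24c, a coat subunit of vesicles that leave the ER, was lowest in cDC2 (124 ± 3.73 CPM), below cDC1 (160 ± 2.22, adjusted p = 0.0233) and pDC (181 ± 19.6, adjusted p = 0.00145). Copa, a coat subunit of vesicles that return to the ER and so in the same step as Surf4, passed no contrast, with 408 ± 23.5 CPM in pDC, 434 ± 23.0 in cDC1 and 366 ± 30.5 in cDC2 (adjusted p between 0.0957 and 0.486).

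Among 25 further ubiquitin enzymes and inhibitory partners of STING, 21 were tested and 14 differed (against 56% of all genes), 10 higher and 2 lower in pDC than in cDC1 (against 24.3% and 24.4%). Insig1, which encodes an ER membrane protein known for its control of sterol synthesis, was highest in pDC, at 189 ± 12.4 CPM against 31.9 ± 0.955 in cDC1 and 34.1 ± 4.85 in cDC2 (log2 fold change against cDC1 2.57, adjusted p = 2.24e-07). Usp18, which recruits a deubiquitinase to STING, was lowest in cDC1, at 34.3 ± 2.35 CPM against 77.6 ± 13.5 in cDC2 (log2 fold change 1.18, adjusted p = 0.000308) and 71.4 ± 8.45 in pDC (1.06, adjusted p = 0.000230). Nlrx1, a mitochondrial NLR family protein that binds STING, had the same arrangement, with 10.5 ± 2.00 CPM in cDC1, 17.6 ± 0.811 in cDC2 (log2 fold change 0.75, adjusted p = 0.0119) and 15.6 ± 1.81 in pDC (0.57, adjusted p = 0.0219). Like Rnf5, the ligases Trim32 and Rnf26 passed no contrast (adjusted p between 0.839 and 0.977 and between 0.195 and 0.837).

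In the order of Tmem173, with all 3 contrasts past the threshold, were 3 of the 71 genes (4.23%, against 2.83% of all genes), named here after their values were seen. Npc1, the lysosomal cholesterol transporter that binds STING, stood at 585 ± 32.9 CPM in pDC, 151 ± 2.88 in cDC2 and 64.2 ± 3.24 in cDC1. Ptpn1, a tyrosine phosphatase of the ER, stood at 376 ± 13.7, 160 ± 27.0 and 104 ± 4.47 CPM. Zdhhc15, a palmitoyltransferase of the Golgi, stood at 9.14 ± 2.49, 2.82 ± 0.627 and 1.16 ± 0.359 CPM. No 2 subsets overlapped in these genes or in Stim1. As they were picked by the 3 contrasts in the same libraries, this is no further evidence.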

How the data were processed

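RNA of cDC1, cDC2 and pDC from steady-state mouse spleen (9 libraries, 3 per subset) was sequenced by the authors as stranded polyadenylated libraries, single reads of 75 bases. Raw read counts per gene were deposited by the authors without normalization. Their processing notes name STAR, SAMtools, featureCounts, MultiQC and mm10, and versions, annotation and strand setting are not given in the sources used here. Degust is named in the study without a statistical method. Libraries were assigned by their labels.

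The deposited counts went into edgeR 4.0.16 (R 4.3.3): filterByExpr with a minimum count of 10 kept 13819 of 39179 genes, TMM scaling, 1 quasi-likelihood fit of the 9 libraries with the subset as the only term, and Benjamini-Hochberg adjustment over all genes tested with a threshold of 0.05. Standard errors were derived from the log2 fold change and the F value. Correlations used log2 of CPM plus a pseudocount of 1. Totals ranged from 15806597 to 32453789 counts, and intervals or floors cover counting error or replicate spread only. Each replicate is a pool of animals, so p-values measure the spread between 3 pools. Any pair of libraries of one subset differed beyond counting error, and each library was counted as 1 sample. Chi-square over genes divided by its degrees of freedom was 9.93 to 18.6 for replicate 1 against 2. For the pairs with replicate 3 it was higher in every subset, at 39.7 to 64.4.

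Pairing comes from the labels, where same-numbered libraries share a date code. They deviated together from their subset means (correlation across genes 0.266 to 0.543 over 9 pairs).

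Alternatives were the replicate block, DESeq2 1.42.0, limma-voom (limma 3.58.1), other scalings and filters, fits of 6 libraries, a fold threshold and each library left out. The 6-library fits of single members, all alternatives for Tmem173 and Mb21d1 and the fit without replicate 3 were added after the data were seen. The script was tested on simulated counts with 200 genes changed. The genes named were the members, Tmem173, Mb21d1, 20 list genes chosen by role (1 of them is not reported here) and the nearest gene of each member that differed by the F test. Members and lists were chosen with earlier results of these data known. Gene positions and exons come from GENCODE M21 on GRCm38, the assembly of mm10, and promoters from RefSeq. The plots were made in matplotlib 3.10.9 (Python 3.11.15). Stimulated cells and protein data were not analysed here.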

Additional observations from a re-analysis of the deposited data

How the results depend on the processing

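The replicate block raised the members that differed by the F test from 5 to 8 (also 8 with DESeq2), those that differed between cDC2 and cDC1 from 2 to 6, and those in the order of Tmem173 from 1 to 2. With the block, the shares of all genes rose as well, from 56% to 66.7%, from 24.4% to 35.6% and from 2.83% to 4.65%. Without replicate 3 in any subset, an alternative chosen after seeing the data, 5 members differed between cDC2 and cDC1 and 2 were in the order. Shares of all genes under the alternatives other than the block are not given here. The counts under the alternatives are thus no result about the members. A required log2 fold change of 1 or more in size, beside the adjusted p, left 3 members in pDC against cDC2, 0 in cDC2 against cDC1 and 0 in the order (at an adjusted p under 0.05 alone, 5, 2 and 1), and 23 of the other pathway genes in place of 48. With each library left out in turn, 1 to 4 members differed between cDC2 and cDC1 and 0 to 1 were in the order, where the 4 came from leaving out pDC replicate 3 and the 0 from leaving out cDC1 replicate 1 or 3 or cDC2 replicate 1 or 3. Directions turned only in differences that did not pass the threshold. With library size alone as scaling, which shifted the median of all genes by 0.09 for pDC against cDC1 and 0.11 for cDC2 against cDC1, the log2 fold change was 0.010 for Rnaseh2b and 0.061 for Mb21d1 in cDC2 against cDC1 and 0.028 for Rnf5 in pDC against cDC1. With each library left out in turn, it ran in pDC against cDC2 from -0.12 to 0.0027 for Dnase2a and from -0.74 to 0.72 for Nlrc3 (-0.063 without cDC2 replicate 1), and in cDC2 against cDC1 from -0.13 to 0.010 for Mb21d1 (0.00056 without cDC2 replicate 1). Without replicate 3 in any subset it was -0.38 for Nlrc3 in pDC against cDC2. The cause of these changes was not tested. In pDC against cDC1, 5 to 8 members passed under the alternatives run (7 in the report), with the higher members falling from 5 to 3 without cDC1 replicate 1 or cDC2 replicate 2 (Trim56 and Nlrc3 were lost) and the lower from 2 to 1 with the required log2 fold change (Samhd1 was lost). Depth limits Nlrc3 most, with 3 to 44 reads per library.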
